A study of Mus musculus with 6 samples.

Results

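Glucose uptake and glycolysis genes of the mouse heart were examined in 6 RNA sequencing libraries. They were 10 genes chosen by name for their place in the pathway, *Slc2a1*, *Slc2a4*, *Hk1*, *Hk2*, *Pfkm*, *Pfkfb2*, *Aldoa*, *Pkm*, *Ldha* and *Ldhb*, out of 24346 genes with a value, and all 10 were found by symbol. Earlier results of these data were known when this choice was made. The libraries came from the hearts of male C57BL/6J mice in 3 groups of 2. The C group was fed normal chow, the N group a NASH diet rich in fat, cholesterol and sucrose with added bile acid, which is used to produce steatohepatitis, and the NP group that diet plus pemafibrate at 0.1 mg/kg, a selective modulator of the nuclear receptor PPARα. The sample labels give 3 weeks of feeding, whereas the methods of the study give a longer period, and the age of the mice was not given in the sources used here. Heart is the tissue on the labels, although the extraction text there speaks of the liver. It is not stated whether the 2 libraries of a group came from separate animals, so that *P* values measure the spread between these libraries, which may be technical.

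The adult heart takes most of its energy from fatty acids and the rest largely from glucose and lactate. Glucose enters cardiomyocytes through GLUT1 (*Slc2a1*), which lies in the cell membrane at all times, and GLUT4 (*Slc2a4*), which moves there in response to insulin and contraction. It is phosphorylated by hexokinases (*Hk1*, *Hk2*) and passes phosphofructokinase (*Pfkm*), the main control point of glycolysis, which is activated by fructose-2,6-bisphosphate, a product of *Pfkfb2* in the heart. Aldolase (*Aldoa*) and pyruvate kinase (*Pkm*) act further down, and the lactate dehydrogenase subunits (*Ldha*, *Ldhb*) interconvert pyruvate and lactate. The subunit encoded by *Ldhb* is known as the heart type and that of *Ldha* as the muscle type. PPARα drives the genes of fatty acid oxidation in the heart.

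Values are FPKM, in which the authors divided by transcript length and by the mapped total, so that levels can be compared between genes. The depth was estimated from the steps between low FPKM values of 4107 genes with a single annotated transcript. It was about 26.1 and 21.5 M reads on chow, 8.75 and 8.69 M on the diet alone and 8.19 and 8.46 M with pemafibrate. Between 74.0% and 79.1% of the values of up to 5 reads were off a whole read by at most 0.1. The C libraries were therefore deeper than any other library by a factor of 2.45 to 3.19, and depth and diet cannot be told apart in comparisons with the C group. *Slc2a1* had the fewest reads of the 10 genes, about 247 to 888 per library, for which counting error alone is 3.36% to 6.36%. *Pfkfb2* came next, with at least about 1192 reads in each library.

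The heart label was checked against marker genes. The 7 cardiomyocyte markers, led by *Actc1*, summed to 34838 and 36806 FPKM on chow, 32415 and 30980 on the diet alone and 34382 and 36623 with pemafibrate. Of these 7, 4 were lower in both N libraries than in both C libraries, beside 27.0% of the 12923 genes tested. Of the same 7, 5 were higher in both NP libraries than in both N libraries, beside 15.2%. By contrast, the 7 skeletal muscle markers summed to between 3.91 and 5.81. The libraries nevertheless differed in other tissues. The 6 atrial markers summed to 309.8 and 175 FPKM on chow, 3672 and 5185 on the diet alone and 3754 and 6199 with pemafibrate. *Nppa* was the most abundant of them. All 6 were higher in both N libraries than in both C libraries, beside 22.5% of the genes tested. *Sln* and *Bmp10* were listed at 0 in C replicate 1 and reached 0.450 and 0.0830 FPKM in C replicate 2, and *Myl7* was 1.51 and 6.70 on chow against 781 to 1319 in the others. The ventricular marker *Myl2* went the other way, with 24052 and 26366 on chow, 11855 and 17042 on the diet alone and 12145 and 18366 with pemafibrate. The 3 ventricular markers summed to 32841 and 35360 FPKM on chow, 17457 and 22794 on the diet alone and 18285 and 25433 with pemafibrate. The atrial markers were therefore far lower in both C libraries than in the rest, and the share of atrium and the diet cannot be told apart in comparisons with the C group.

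Other markers also moved with a group or with 1 library. The 5 liver markers summed to 404 FPKM in C replicate 2, of which *Alb* made up 211, against 28.0 in C replicate 1 and at most 5.26 in any other library. The 7 adipocyte markers, led by *Cfd*, summed to 2.09 and 9.38 on chow, 189.9 and 104 on the diet alone and 16.0 and 87.4 with pemafibrate, and *Plin1*, *Lep* and *Ucp1* were listed at 0 in C replicate 1. The 8 leukocyte markers, led by *Lyz2*, summed to 203 and 192 on chow, 329 and 318 on the diet alone and 143 and 133 with pemafibrate. All 8 were higher in both N libraries than in both C libraries, beside 22.5% of the genes tested. They were also all lower in both NP libraries than in both N libraries, beside 14.7%. The 5 fibroblast markers summed to 423 and 501 on chow and to between 514 and 614 in the other 4 libraries. Of these 5, 4 were higher in both N libraries than in both C libraries, beside 22.5% of the genes tested. The 4 smooth muscle markers summed to 84.8 and 70.4 on chow and to between 90.5 and 126 in the others. The 5 red blood cell markers found of 6 summed to 30.7 in C replicate 1 and to between 147 and 199.8 elsewhere, whereas the sums of the 5 endothelial markers, from 248 to 339.7, did not go with a group. In whole tissue, fewer cells of a type cannot be told apart from less RNA per cell. The part of these tissues in the results that follow was not tested.

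Over the 6 libraries *Aldoa* was the most abundant of the 10 genes, with a mean of 2145 FPKM, followed by *Ldhb* with 1588. *Pkm*, *Pfkm* and *Ldha* followed with means of 629, 516 and 499, and their ranges over the libraries overlapped. *Slc2a4* had a mean of 203, *Hk2* 84.3, *Hk1* 59.2, *Pfkfb2* 43.2 and *Slc2a1* 10.6. The ranges of *Aldoa* and *Ldhb* also overlapped, as did those of *Hk1* and *Pfkfb2*, whereas each of the other neighbours in this order was separated in all 6 libraries. *Pfkfb2* varied most between libraries, with its highest value 1.71 times the lowest, and *Hk2* least, with 1.17 times. The order of magnitude of each gene was thus the same on chow, on the NASH diet and with pemafibrate.

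**Figure D1:**
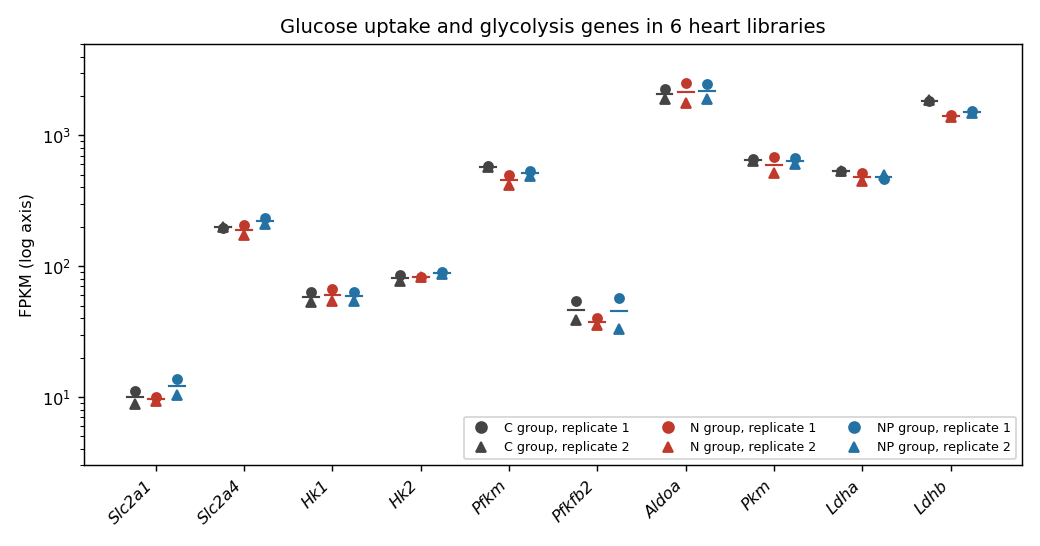
FPKM of the 10 glucose uptake and glycolysis genes on a log axis, with a point for each library and a short line for the mean of each group of 2 libraries. The genes span from 8.91 FPKM for *Slc2a1* to 2536 for *Aldoa*, and for *Ldhb* and *Pfkm* the C libraries lie above all others.

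The comparison of the N and C groups asks what the NASH diet did to these genes. The 2 genes with the clearest separation were *Ldhb* and *Pfkm*, and neither passed the test. Both passed with the replicate number as a block in the N and NP libraries only (limma adjusted *P* = 0.0367 and 0.0496). No label says, however, that this number marks an animal or a batch. The N and NP files of replicates 1 and 2 are named in different ways. Differences between replicates 2 and 1 correlated across genes at 0.458 between the N and NP groups (Pearson). Whether this number marks a batch was not tested. *Ldhb* was 1817 and 1866 FPKM on chow, 1439 and 1371 on the diet alone and 1544 and 1489.6 with pemafibrate. Both C libraries lay above all 4 others, and the N mean of 1405 ± 47.7 compared with 1842 ± 34.8 in the C group (SD, n = 2). Its log2 difference was -0.39 on the log2(FPKM + 1) scale (95% interval -0.64 to -0.14, limma adjusted *P* = 0.165), or 0.763-fold. *Pfkm*, the muscle phosphofructokinase, was 578 and 573 FPKM on chow, 500.4 and 416 on the diet alone and 535 and 492 with pemafibrate. Again the C libraries were the highest, and the log2 difference between the N and C groups was -0.34 (95% interval -0.65 to -0.02, limma adjusted *P* = 0.304). It was -0.20 without N replicate 2 and -0.47 without N replicate 1, so that its size hung on a single N library.

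*Ldha* was 534 and 536 FPKM on chow, 519 and 447 on the diet alone and 463 and 496 with pemafibrate. The N libraries lay below the C libraries, but the gap between the closest of them was small beside the distance between the N libraries (log2 difference -0.15, 95% interval -0.44 to 0.14). The other 7 genes overlapped between the N and C groups. The glucose transporters had log2 differences of -0.04 for *Slc2a1* and -0.07 for *Slc2a4*, and the hexokinases 0.05 for *Hk1* and 0.03 for *Hk2*. *Hk2* was 86.0 and 76.8 FPKM on chow, 83.30 and 83.31 on the diet alone and 89.6 and 86.6 with pemafibrate, and *Hk1* was 63.1 and 53.6, 66.5 and 54.4, and 63.7 and 53.9 in the same order. *Aldoa* and *Pkm* had log2 differences of 0.03 and -0.13. *Aldoa* was 2276 and 1895 FPKM on chow and 2536 and 1768 on the diet alone, so that the libraries of a group differed more than the groups. *Pkm* was 665 and 634 on chow, 679.7 and 517 on the diet alone and 675 and 602 with pemafibrate. *Pfkfb2* had the widest interval, with a log2 difference of -0.28 (95% interval -0.97 to 0.41, and -0.11 with scaling to the same total), and was 54.0 and 39.1 FPKM on chow, 40.1 and 35.3 on the diet alone and 57.1 and 33.3 with pemafibrate. Without 1 library *Pfkfb2* ran from -0.51 to -0.05, *Ldha* from -0.26 to -0.04 and *Pkm* from -0.33 to 0.07. The differences of *Slc2a1*, *Slc2a4*, *Hk1*, *Hk2* and *Aldoa* also turned without at least 1 library.

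Of the 12923 genes tested with limma, 1.55% had an adjusted *P* value under 0.05 between the N and C groups, 200 genes in all, of which 191 were higher and 9 lower in the N group. Without C replicate 1 the split was 88 higher and 95 lower, and with no filter on low values 137 higher and 90 lower, so that the excess of higher genes was lost without that library and smaller without the filter. None of the 10 glucose uptake and glycolysis genes was among them, and 2 had an unadjusted *P* value under 0.05, *Ldhb* and *Pfkm*, as did 15.0% of all genes tested. Both N libraries lay below both C libraries for 3 of the 10 genes, where this held for 27.0% of all genes tested, and above them for 0, where it held for 22.5%. These shares are near the background or under it. The median log2 difference of the 10 genes was -0.10, beside -0.03 for all genes, but it turned to 0.07 with scaling to the same total, to 0.00490 under quantile normalization and to 0.02 without N replicate 2. It was -0.24 without N replicate 1, -0.16 without C replicate 2 and -0.07 without C replicate 1, so that the 10 genes had no common direction that held. Scaling FPKM to the same total moved the median of all genes to 0.12, and it turned the differences of *Slc2a1*, *Slc2a4*, *Pkm* and *Ldha* positive, while quantile normalization turned those of *Pkm* and *Ldha*. Relative to the median of all genes, *Ldhb* differed by -0.36 without this scaling and by -0.33 with it, and *Pfkm* by -0.30 and -0.28. Under quantile normalization, however, the log2 difference of *Ldhb* was -0.09 and that of *Pfkm* -0.14. The count of 200 genes was 49 without C replicate 2, 125 without N replicate 1 and 82 without N replicate 2, and 0 of the 10 genes passed in any of these.

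**Figure D2:**
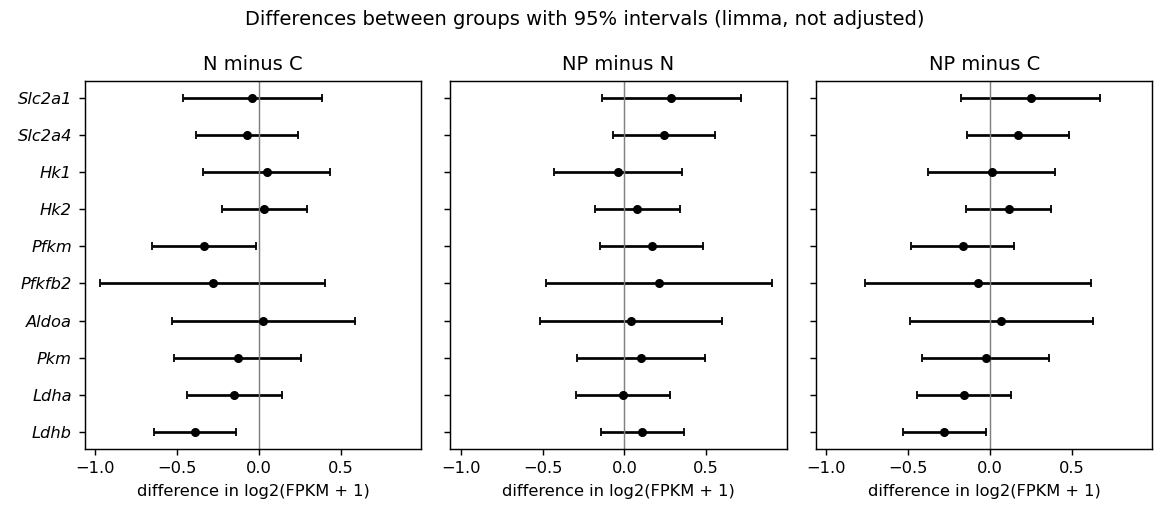
Differences in log2(FPKM + 1) between groups for the 10 genes, with points for the limma estimate and bars for its 95% interval, which is not adjusted for the number of genes. Only the intervals of *Ldhb* and *Pfkm* between the N and C groups and of *Ldhb* between the NP and C groups leave out 0.

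The comparison of the NP and N groups asks what pemafibrate added to the NASH diet. With all libraries the glucose transporters had the largest differences of the 10 genes, but these did not pass the test and their size hung on single libraries. *Slc2a1* was 11.1 and 8.91 FPKM on chow, 10.04 and 9.29 on the diet alone and 13.8 and 10.4 with pemafibrate. Both NP libraries lay above both N libraries, and NP replicate 2 lay below C replicate 1. The NP group differed from the N group by 0.29 on the log2 scale (95% interval -0.14 to 0.71, limma adjusted *P* = 0.857). *Slc2a4*, the insulin-responsive transporter, was 196 and 199 FPKM on chow, 205 and 173 on the diet alone and 235 and 211 with pemafibrate. The NP libraries were the highest of the 6, and the log2 difference to the N group was 0.24 (95% interval -0.07 to 0.55, limma adjusted *P* = 0.799). Between libraries of the same replicate number the differences were 0.43 and 0.15 for *Slc2a1* and 0.20 and 0.29 for *Slc2a4*.

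*Pfkfb2* had a log2 difference of 0.21 here, and its NP libraries lay on both sides of the N libraries. The remaining log2 differences were 0.17 for *Pfkm*, 0.11 for *Ldhb*, 0.10 for *Pkm*, 0.08 for *Hk2*, 0.04 for *Aldoa*, -0.01 for *Ldha* and -0.04 for *Hk1*. *Pfkfb2*, *Pkm*, *Aldoa*, *Ldha* and *Hk1* turned without at least 1 library, and *Pfkm* had 0.03 without N replicate 2. *Aldoa* was 2487 and 1907 FPKM with pemafibrate. Of all genes tested 1.39% passed between the NP and N groups, 179 genes, with each of the 179 lower in NP, although 19 were higher and 105 lower with no filter on low values and 10 higher and 73 lower without NP replicate 1. With limma 0 of the 10 genes passed and 0 had an unadjusted *P* value under 0.05, where 8.04% of all genes did. Both NP libraries lay above both N libraries for 4 of the 10 genes, *Slc2a1*, *Slc2a4*, *Hk2* and *Ldhb*, where this held for 15.2% of all genes, and below them for 0, where it held for 14.7%. The median of the 10 genes was 0.11, beside 0.03 for all genes, and 8 of 10 were positive, beside 55.8% of all genes. The median was 0.30 without N replicate 1 and 0.21 without NP replicate 2, but 0.06 without N replicate 2 and 0.05 without NP replicate 1. The differences of *Slc2a1*, *Slc2a4*, *Hk2* and *Ldhb* stayed positive under each scaling tried and without each library in turn. Their size moved, however: *Slc2a1* had 0.10 without NP replicate 1, below *Pfkm* with 0.11, and 0.48 without NP replicate 2, and *Slc2a4* had 0.12 without N replicate 2 and 0.36 without N replicate 1. The intervals of the 10 genes reached up to 0.90, for *Pfkfb2*, so that differences of this size are not shut out. The count of 179 genes was 80 without C replicate 1, 78 without C replicate 2, 108 without N replicate 1, 99 without N replicate 2, 83 without NP replicate 1 and 67 without NP replicate 2, and 0 of the 10 genes passed in each case.

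Between the NP and C groups, *Ldhb* had a log2 difference of -0.28 (95% interval -0.53 to -0.03, limma adjusted *P* = 0.583), and *Pfkm* and *Ldha* had -0.17 and -0.16. Under quantile normalization *Ldhb* had -0.00320, and *Pfkm* and *Ldha* turned to 0.03 and 0.07. On the other side *Slc2a1* differed by 0.25 and *Slc2a4* by 0.17, and *Hk2* by 0.11. Without NP replicate 1, however, *Slc2a1* had 0.06 and *Slc2a4* 0.09, and without C replicate 2 *Slc2a1* had 0.10 and *Hk2* 0.03. *Aldoa*, *Hk1*, *Pkm* and *Pfkfb2* had differences of 0.07, 0.01, -0.03 and -0.07, of which the last 2 turned positive with scaling to the same total. Each of these 4 also turned without at least 1 library, and *Pfkfb2* ran from -0.45 without NP replicate 1 to 0.31 without NP replicate 2. Both NP libraries lay above both C libraries for *Slc2a4* and *Hk2*, 2 of 10 genes against 19.5% of all genes tested, and below them for *Pfkm*, *Ldha* and *Ldhb*, 3 of 10 against 23.0%. Over all genes 0.0387% passed, which was 5 genes, all higher in NP (5 higher and 1 lower with scaling to the same median), and with limma 0 of the 10 genes did, with 1, *Ldhb*, at an unadjusted *P* value under 0.05, where 8.05% of all genes were. The count of 5 genes was 101 without C replicate 1, of which 91 were lower, 12 without C replicate 2, of which 7 were lower, and 14 without NP replicate 1. The comparisons with the C group share its libraries, so that agreement between them is not independent.

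The balance of the lactate dehydrogenase subunits was described within each library, since *Ldha* was closer to its C level than *Ldhb* in the N group. Neither subunit passed the test, and the ratio itself was not tested. *Ldha* made up 22.7% and 22.3% of the summed FPKM of both subunits on chow, 26.5% and 24.6% on the diet alone and 23.1% and 25.0% with pemafibrate. All N and NP libraries lay above the C libraries, and the NP libraries overlapped with the N libraries. The log2 ratio of *Ldha* to *Ldhb* within a library was -1.78 ± 0.02 on chow, -1.54 ± 0.10 on the diet alone and -1.66 ± 0.11 with pemafibrate (SD, n = 2). The N and C groups thus differed by 0.24, beside a pooled SD of 0.0863, and a single scaling factor for a library leaves this ratio as it is. Quantile normalization is not such a factor, and with it the log2 differences between these groups were 0.02 for *Ldha* and -0.09 for *Ldhb*, which are closer to each other. Without any 1 library the difference was between 0.17 and 0.31. No permutation test was run, since with 2 libraries against 2 its smallest possible *P* value is 0.333. For the other pairs the groups overlapped. *Slc2a1* made up between 4.28% and 5.57% of the sum of both transporters and *Hk1* between 38.3% and 44.4% of the sum with *Hk2*.

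To show how the start regions of these subunits differ, the bases before the transcription start were read from the RefSeq table of mouse build GRCm38.p6. Windows of 250 bases before to 50 bases after each start were searched on both strands for ACGTG, whose reverse complement is CACGT, the core bound by hypoxia-inducible and other basic helix-loop-helix factors, which overlaps with the palindrome CACGTG. Of the 10 genes 9 had at least 1 window there, 19 windows in all, and *Slc2a4* had none. The core was found in 11 of the 19 windows, or 57.9%, beside 19.6% of all 32851 windows and 25.0% of the 12494 windows of the genes tested, and 8 of the 9 genes had it in at least 1 window, beside 21.8% of all genes and 29.0% of those tested. The shares per gene are not alike, since the 9 genes had more windows each than all 27025 genes or the 9776 genes tested. More windows give a gene more places for a match. CACGTG was found in 3 of the 19 windows, or 15.8%, beside 7.15% of all windows and 9.78% of those of the genes tested. Windows of a gene can overlap, and a match is a description of letters. The *Ldha* stretch, of 150 bases, is chr7:46845654-46845803 on the plus strand with 5 matches over both strands, the *Ldhb* stretch, also of 150 bases, is chr6:142507958-142508107 on the minus strand with 0 matches, and that of *Slc2a1*, of 60 bases, is chr4:119108685-119108744 on the plus strand with 1 match. Each ends just before a start, and capitals mark the matches.
Ldha: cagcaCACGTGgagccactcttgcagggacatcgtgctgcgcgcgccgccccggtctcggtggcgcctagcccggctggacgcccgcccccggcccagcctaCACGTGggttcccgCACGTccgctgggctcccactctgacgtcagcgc
Ldhb: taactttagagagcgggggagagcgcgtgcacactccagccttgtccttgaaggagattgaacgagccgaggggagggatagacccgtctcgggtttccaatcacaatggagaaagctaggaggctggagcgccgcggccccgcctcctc
Slc2a1: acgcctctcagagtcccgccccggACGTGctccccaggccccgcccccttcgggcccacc
The *Ldha* stretch holds the palindrome at its beginning and again near its end, followed by a further core, whereas the *Ldhb* stretch holds no match. The other *Ldha* window, chr7:46846832-46847131, had 0 matches, like that of *Ldhb*, so that the contrast holds for 1 of the 2 *Ldha* starts.

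The other genes of the pathway were taken from 4 lists of 74 genes. By FPKM, most steps from glucose to lactate were dominated by 1 gene, often the muscle or heart isoform. The hexokinases were an exception, with *Hk2* at only 1.25 to 1.61 times *Hk1*. *Slc2a4* made up 88.0% to 90.2% of 5 glucose transporters, *Pfkm* 86.8% to 89.4% of the phosphofructokinase subunits, *Pgam2* 91.2% to 94.8% of phosphoglycerate mutase, *Eno3* 94.3% to 98.9% of enolase and *Pkm* at least 99.9% of pyruvate kinase. *Pfkfb2* made up 64.5% to 85.7% of the enzymes that set fructose-2,6-bisphosphate. *Gpi1*, *Tpi1*, *Gapdh* and *Pgk1* were the single genes listed for their steps, and *Slc16a1*, the lactate and pyruvate carrier, made up 92.3% to 94.8% of 3 transporters. Lactate dehydrogenase was *Ldhb* for 73.5% to 77.7%. *Gapdh*, *Aldoa* and several other glycolytic genes have processed pseudogenes with which reads can be shared, so that their values are uncertain. The level of *Eno1*, of which the mouse genome holds near-identical copies, is also uncertain, and with it the share of *Eno3*.

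Of 24 other glycolysis genes tested among 27, 0 passed with limma between the N and C groups, 8 had an unadjusted *P* value under 0.05, or 33.3% beside 15.0% of all genes, and the median log2 difference was -0.07, which turned to 0.07 under quantile normalization, 0.10 with scaling to the same total and 0.07 without N replicate 2. *Eno3*, the muscle enolase, was 1220.0 and 1258 FPKM on chow, 844 and 774 on the diet alone and 858 and 892 with pemafibrate. The C libraries were clearly apart from the rest, as for *Ldhb*, and the log2 difference between the N and C groups was -0.62 (standard error 0.11, limma adjusted *P* = 0.0663). It was negative under each scaling tried, with -0.38 under quantile normalization. *Pgam2*, the muscle phosphoglycerate mutase, had -0.40 (limma adjusted *P* = 0.221), *Tpi1* -0.24, *Gpi1* -0.06 and *Pgk1* -0.09, and *Slc16a1* had 0.19. Under quantile normalization *Pgam2* had -0.20 and *Tpi1* -0.06, while *Gpi1* and *Pgk1* turned to 0.05 and 0.04 and *Slc16a1* had 0.27. *Slc2a12*, a further glucose transporter, was 3.76 and 4.06 FPKM on chow and between 2.51 and 2.73 in the other 4 (log2 difference -0.44 in N against C, limma adjusted *P* = 0.167, and -0.47 in NP against C, limma adjusted *P* = 0.496). *Eno3*, *Pgam2*, *Pfkm*, *Ldhb*, *Ldha*, *Tpi1* and *Pgk1* had their highest values in the C libraries, where the atrial markers were lowest and *Myl2* highest, and the part of the atrium in these differences was not tested. Of the 24 other glycolysis genes, both N libraries lay below both C libraries for 9, beside 27.0% of all genes tested. They lay above them for 10, beside 22.5%.

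**Figure D3:**
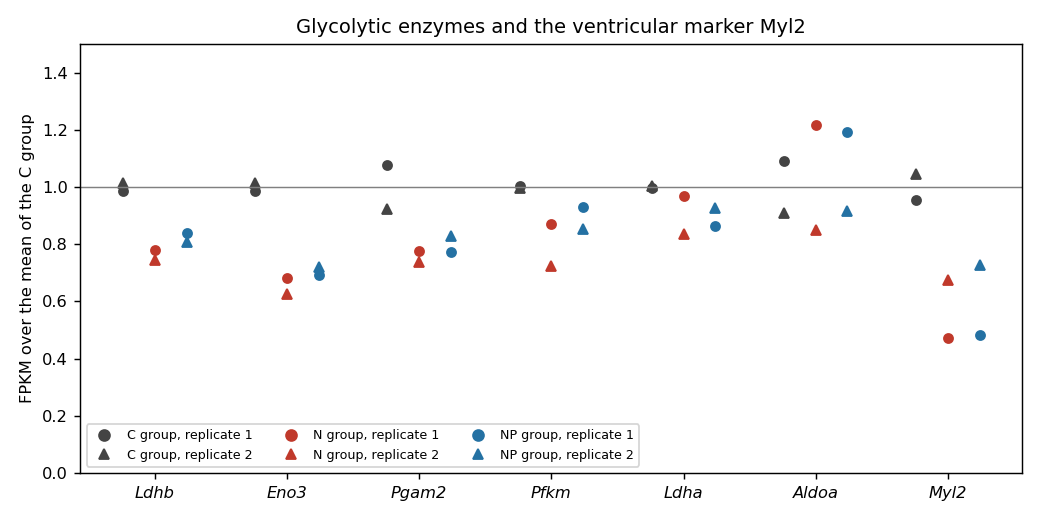
FPKM of 6 glycolytic enzymes and of the ventricular marker *Myl2* in each library, divided by the mean of the C group, so that the line at 1 is the C mean. The N and NP libraries lie between 0.625 and 0.720 for *Eno3*, between 0.745 and 0.838 for *Ldhb* and between 0.470 and 0.728 for *Myl2*, whereas *Aldoa* runs from 0.848 to 1.22.

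*Pfkfb3* and *Hk3* had their highest values in the N libraries, without passing the test. *Pfkfb3*, an inducible enzyme that makes fructose-2,6-bisphosphate, was 2.54 and 2.70 FPKM on chow, 8.43 and 13.4 on the diet alone and 2.51 and 4.97 with pemafibrate. Its log2 difference was 1.69 for N against C and -1.35 for NP against N (limma adjusted *P* = 0.0758 and 0.173), and the former passed with FPKM scaled to the same total (limma adjusted *P* = 0.0356). Both passed with the replicate number as a block in all groups (limma adjusted *P* = 0.0160 and 0.0392). They also passed with this block in N and NP only (0.00132 and 0.00329). *Hk3*, a hexokinase known from leukocytes, was 0.577 and 0.529 FPKM on chow, 1.88 and 1.40 on the diet alone and 0.270 and 0.405 with pemafibrate, from about 7 to 50 reads per library. Its log2 differences were 0.76 and -0.98 (limma adjusted *P* = 0.103 and 0.0579), and the latter passed with a constant prior variance (limma adjusted *P* = 0.0341). The former passed with the block in N and NP only (limma adjusted *P* = 0.0499). Between libraries of the same replicate number, *Pfkfb3* differed by -1.43 and -1.27 and *Hk3* by -1.18 and -0.78 between the NP and N groups. The 8 leukocyte markers were likewise highest in the N libraries, and their part in these values was not tested. With pemafibrate against the diet alone 0 of the 24 genes passed with limma and 4 had an unadjusted *P* value under 0.05 (16.7% beside 8.04% of all genes), and the median was -0.02 (0.03 without N replicate 1 and -0.18 without N replicate 2). In the NP group against the C group 0 passed with limma, 4 had an unadjusted *P* value under 0.05 (16.7% beside 8.05% of all genes), and the median was -0.20, or -0.03 under quantile normalization and -0.04 with scaling to the same total.

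Regulators of glucose use gave the only gene of the 4 lists past the threshold. *Tbc1d1*, a Rab GTPase-activating protein that restrains glucose transporter traffic to the membrane until it is phosphorylated, was 4.45 and 3.78 FPKM on chow, 8.86 and 10.3 on the diet alone and 9.59 and 11.7 with pemafibrate. Compared to chow it rose by 1.05 on the log2 scale on the NASH diet (standard error 0.15, limma adjusted *P* = 0.0347) from a mean of 4.12 FPKM to 9.58, with both N libraries above both C libraries. This call was lost under quantile normalization (limma adjusted *P* = 0.0560), with no filter on low values (0.135) and with only these groups in the model (0.0567). It was also lost without each library in turn, with adjusted *P* values of 0.137 and 0.297 without C replicates 1 and 2, 0.103 and 0.146 without N replicates 1 and 2, and 0.0537 and 0.0560 without NP replicates 1 and 2. The difference itself hardly moved, with 1.02 under quantile normalization and 0.95 to 1.15 without a library, and the call held with scaling to the same total (0.0162), with scaling to the same median (0.0476), with an offset of 0.1 (0.0308) and with a constant prior variance (0.0365). It also held with the replicate number as a block in all groups (0.0303) and in N and NP only (0.00735). For NP against N the difference was 0.14, and for NP against C 1.18 (limma adjusted *P* = 0.160). *Irs2*, an adaptor of the insulin receptor, was 3.11 and 3.27 FPKM on chow, 5.43 and 10.1 on the diet alone and 6.95 and 6.62 with pemafibrate (log2 difference 1.02 in N against C, limma adjusted *P* = 0.148). Without N replicate 1 this difference was 1.41 and passed (limma adjusted *P* = 0.0245), whereas without N replicate 2 it was 0.62 (0.173), and without C replicates 1 and 2 the adjusted *P* values were 0.535 and 0.611. *Tbc1d1* and *Irs2* were high in the same libraries as the atrial markers, whose part in this was not tested. Of the 19 regulators, 1 passed as higher and 0 as lower between the N and C groups with a median of 0.02, and 5 had an unadjusted *P* value under 0.05 (26.3% beside 15.0%). This median was 0.17 with scaling to the same total and -0.13 without N replicate 1. For NP against N 0 of the 19 passed with limma, 1 had an unadjusted *P* value under 0.05 (5.26% beside 8.04%), and the median was 0.04, but -0.09 without NP replicate 1 and -0.02 without N replicate 2. *Arrdc4*, related to *Txnip*, had -0.41 (limma adjusted *P* = 0.531, and -0.58 to -0.24 without a library) and *Hif1a*, the hypoxia-inducible factor, -0.20 (limma adjusted *P* = 0.878, and -0.30 to -0.10 without a library). For NP against C 0 passed with limma, 3 had an unadjusted *P* value under 0.05 (15.8% beside 8.05%), and the median was -0.00380, but -0.16 without NP replicate 1 and 0.18 without NP replicate 2.

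Pyruvate enters mitochondria through a carrier and the pyruvate dehydrogenase complex, which pyruvate dehydrogenase kinases switch off. Of 13 genes of this list 0 passed with limma between the N and C groups and 3 had an unadjusted *P* value under 0.05 (23.1% beside 15.0% of all genes), while 11 of 13 had a negative difference (10 of 13 with scaling to the same total or quantile normalization), with a median of -0.29. Of all 12923 genes tested, 7127 had a negative difference. Without N replicate 2 the median of the list was -0.18. Both N libraries lay below both C libraries for 10 of these 13 genes, beside 27.0% of all genes tested. Scaling to the same total raises the median of all genes, as given above, and with it the median of the list was -0.11, and *Pdhx* and *Dlat*, subunits of the complex, went from -0.30 and -0.29 to -0.13 and -0.11. *Pdk3* went the other way, with 1.08 and 1.05 FPKM on chow, 2.08 and 2.74 on the diet alone and 1.96 and 2.94 with pemafibrate, which is about 30.7 to 53.8 reads per library (log2 difference 0.72 in N against C, limma adjusted *P* = 0.161). With pemafibrate against the diet alone 0 of the 13 genes passed with limma, 0 had an unadjusted *P* value under 0.05, and the median was 0.11. *Dlat* and *Pdhx* had 0.18 and 0.15 there, and *Pdhx* 0.08 to 0.22 without a library. Against chow 0 of them passed with limma in the NP group, 2 had an unadjusted *P* value under 0.05 (15.4% beside 8.05%), *Pdk3* and *Pdk4*, and the median was -0.11, which turned to 0.04 with scaling to the same total.

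Glycogen is the store of glucose within the heart. Of 15 genes of its metabolism, 0 passed with limma in any of the 3 comparisons, and 1, 0 and 1 had an unadjusted *P* value under 0.05 between the N and C, the NP and N, and the NP and C groups, beside 15.0%, 8.04% and 8.05% of all genes, with medians of -0.12, 0.11 and -0.01. The first median was -0.07 without N replicate 2 and 0.05 with scaling to the same total. Without NP replicates 1 and 2 the second was 0.04 and 0.18, and the third -0.10 and 0.07. Between the N and C groups 4 of the 15 were positive, beside 44.8% of all genes, but 9 of the 15 with scaling to the same total. For NP against N 13 of the 15 were positive, beside 55.8% of all genes, under each scaling tried, and 10 without NP replicate 1. For NP against C 6 of the 15 were positive, but 12 with quantile normalization and 13 with scaling to the same total. *Ppp1r3a*, which targets protein phosphatase 1 to glycogen in muscle, was 35.5 and 44.8 FPKM on chow and between 26.3 and 32.1 in the other 4 (log2 difference -0.52 in N against C, limma adjusted *P* = 0.228, and -0.44 in NP against C, limma adjusted *P* = 0.583, with -0.61 to -0.28 for the latter without a library). *Phkg1*, a catalytic subunit of phosphorylase kinase, and the branching enzyme *Gbe1* had 0.35 and 0.15 between the NP and N groups, and *Phkg1* had 0.44 between the NP and C groups. Without a library *Phkg1* ran from 0.17 to 0.52 in the former comparison and from 0.23 to 0.64 in the latter.

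The libraries of a group differed from each other in a way that recurred for these genes. Replicate 2 was lower than replicate 1 for 7 of the 10 genes on chow, 9 on the diet alone and 9 with pemafibrate, where this held for 48.0%, 51.5% and 50.9% of all genes tested. It held in both the N and NP groups for 8 of the 10 genes, beside 36.3% of all genes. The median difference between replicates 2 and 1 was -0.12 on chow, -0.23 on the diet alone and -0.16 with pemafibrate. In the N and NP groups it was largest, of all genes listed, for *Pdk4*, the kinase that shuts off pyruvate oxidation, and for *Txnip*, an inhibitor of glucose uptake named here after its values were seen. *Pdk4* was 1038 and 1108 FPKM on chow, 996 and 129 on the diet alone and 338 and 89.5 with pemafibrate. *Txnip* was 619 and 587 on chow, 468 and 170.2 on the diet alone and 558 and 157 with pemafibrate. Replicate 2 was thus far below replicate 1 for both genes on the NASH diet, with or without pemafibrate, while the C libraries were alike. The log2 difference of *Pdk4* was -1.58 for N against C (95% interval -4.10 to 0.95, limma adjusted *P* = 0.533), -1.04 for NP against N (limma adjusted *P* = 0.956) and -2.62 for NP against C (limma adjusted *P* = 0.602). Without N replicate 2 the first of these was -0.11 and without N replicate 1 it was -3.05, and without N replicate 1 the second was 0.43. The second was, however, negative between libraries of the same replicate number, with -1.56 for replicate 1 and -0.52 for replicate 2. *Gapdh*, which is often taken as a reference, was 2558 and 2357 on chow, 2464 and 1361 on the diet alone and 2224 and 1569 with pemafibrate, and its difference of -0.42 in N against C became 0.00490 without N replicate 2. Marker sums differed between the replicates too. The endothelial sum was lower in replicate 2, with 282 and 265 on chow, 325 and 248 on the diet alone and 340 and 261 with pemafibrate. The ventricular sum was higher in replicate 2 of each group, and the atrial sum in replicate 2 of the N and NP groups. The part of these tissues in the replicate differences was not tested.

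**Figure D4:**
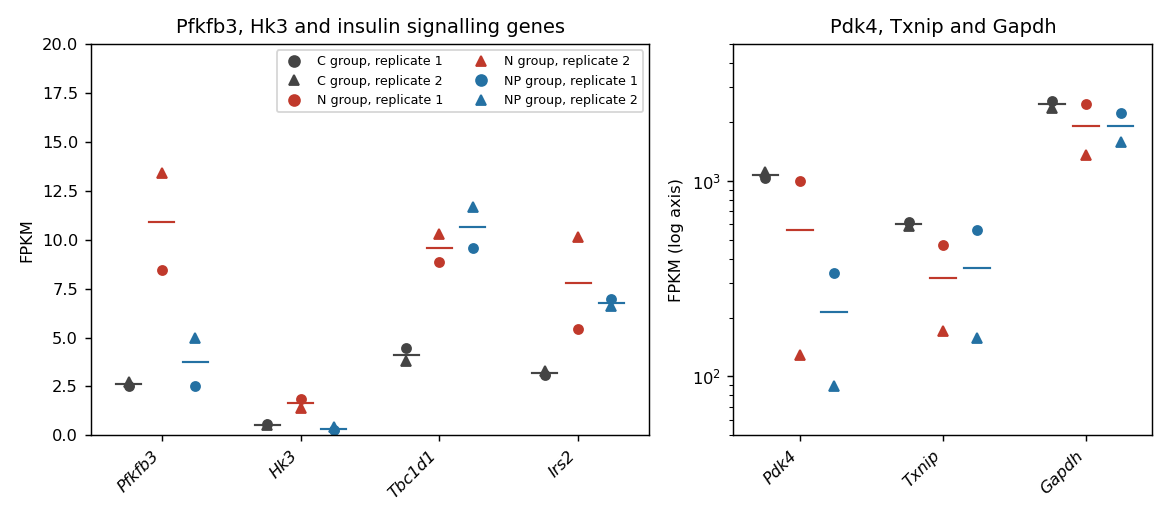
FPKM of *Pfkfb3*, *Hk3*, *Tbc1d1* and *Irs2* on a linear axis and of *Pdk4*, *Txnip* and *Gapdh* on a log axis, with a point for each library and a short line for the mean of each group. *Pfkfb3* is highest in the N libraries, *Tbc1d1* is higher in all N and NP libraries than in the C libraries, and *Pdk4* runs from 89.5 to 1108 with replicate 2 the lowest in the N and NP groups.

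The genes whose levels ran most like those of the glucose transporters over the 6 libraries were sought among the 5760 genes whose mean FPKM was 10 or more. For *Slc2a1* they were *Esam*, an adhesion molecule of the endothelium, with a Pearson correlation of 0.979, then *Cyb5r3*, *Osbp*, *E430025E21Rik* and *Ubald1* with 0.975 to 0.964. *Esam* was highest in NP replicate 1, at 53.3 FPKM, and lowest in C replicate 2, at 41.3, as *Slc2a1* was. For *Slc2a4* they were the nuclear receptor gene *Esrrb* with 0.989, then *Adrm1*, *Zfyve9*, *Sh3pxd2a* and *Gab1* with 0.985 to 0.976. *Esrrb* was 16.1 FPKM in NP replicate 1 and 9.96 in N replicate 2, the libraries in which *Slc2a4* was highest and lowest. These correlations are the highest of many over 6 points and are a description of these libraries.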

How the data were processed

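Heart RNA was sequenced as 75-base single reads from stranded mRNA libraries. Per the submitters' processing notes and the study's methods, the authors mapped them to mm10 with TopHat2 2.0.13, Bowtie2 2.2.3 and SAMtools 0.1.19, and the deposited FPKM come from Cufflinks 2.2.1, without pooling. The annotation was not given in the sources used here, and read counts were not used here. Libraries were grouped by the sample titles. Log2(FPKM + 1) was fitted with limma 3.58.1 in R 4.3.3, with 3 groups in a linear model and an empirical Bayes prior with a trend, over the 12923 genes whose mean FPKM was 0.5 or more. This scale understates changes of low genes. *P* values were adjusted by the method of Benjamini and Hochberg, with a threshold of 0.05. Python 3.11.15, numpy 2.4.6, pandas 2.3.3 and matplotlib 3.10.9 were used for the rest. Depth used transcripts of GENCODE M21 less 200 bases, gene starts RefSeq. The test and the depth estimate were also run on simulated data, whose outcome is not given here. The 10 genes and the lists were chosen with earlier results of these data known. Named genes are the 10, those past the threshold, the 2 smallest *P* values per list and comparison, *Pdk4* and the most abundant gene of each step. Offset, filter, scaling, replicate block, model and left-out libraries were varied.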

Additional observations from a re-analysis of the deposited data

How the results depend on the processing

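None of the 10 glucose uptake and glycolysis genes passed the threshold in any comparison under any alternative, with 1 exception. With the replicate number as a block in the N and NP libraries only, 2 passed between the N and C groups, *Ldhb* (limma adjusted *P* = 0.0367) and *Pfkm* (0.0496). Over the other settings that kept all libraries, the adjusted *P* value of *Ldhb* reached 0.775. The numbers of all genes that passed moved more. Between the N and C groups, 200 became 313 with scaling to the same total, 328 with the replicate block and 1100 (596 higher and 504 lower) with the block in N and NP only, and lay between 49 and 183 without a library. Between the NP and N groups, 179 became 301 with the block in N and NP only and 78 with only the groups compared, and lay between 67 and 108 without a library. Between the NP and C groups, 5 became 12 with an offset of 0.1, 16 with no filter, 10 with scaling to the same total, 20 with the replicate block and 55 with the block in N and NP only, and lay between 5 and 101 without a library. The cause was not tested. Differences between replicates 2 and 1 correlated across genes, which are not independent, at 0.0471 between the C and N groups, 0.124 between the C and NP groups and 0.458 between the N and NP groups (Pearson). By rank (Spearman) these correlations were higher, at 0.23, 0.263 and 0.555 in the same order. No label says that a replicate number marks an animal or a batch, although the N and NP files of replicates 1 and 2 are named in different ways and only the names of replicate 2 carry a mark of 3 weeks. The numbers were therefore not taken as a pairing, and whether the names mark batches or different feeding times is not stated in the sources used here. With the block in N and NP only, *Eno3* (0.0174), *Pfkfb3* (0.00132), *Pdk3* (0.0303), *Irs2* (0.0450), *Hk3* (0.0499), *Pdk4* (0.0257) and *Txnip* (0.00709) also passed for N against C (adjusted *P* values of limma), *Pfkfb3* (0.00329) between the NP and N groups, and *Tbc1d1* (0.0234), *Pdk4* (0.0268) and *Txnip* (0.0354) between the NP and C groups. With the replicate block in all groups, *Eno3* (0.0366) and *Pfkfb3* (0.0160) passed between the N and C groups and *Pfkfb3* (0.0392) between the NP and N groups.

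The log2 ratio of *Ldha* to *Ldhb* between the N and C groups was 0.24 with no offset and between 0.17 and 0.31 without a library. A lone library left in a group was assumed to vary like the other groups. For the named genes and the other ratios, 1509 values under an alternative stayed on their side of the threshold or within the replicate SD, 19 newly passed the threshold, most of them with a replicate block, 9 no longer did, all of *Tbc1d1* between the N and C groups, and 4 moved, all of the ratio of *Hk1* to *Hk2* without an N library. With 2 libraries a group, the 95% intervals of the 10 genes reached 0.25 to 0.69 on either side on the log2 scale, and differences inside and beyond this range, such as that of *Ldhb*, did not pass the adjusted test. Protein, phosphorylation and flux are not measured by RNA sequencing.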

Other observations

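*Eno1* was 26.3 and 13.6 FPKM on chow, 50.6 and 29.99 on the diet alone and 48.1 and 28.4 with pemafibrate, lower in replicate 2 of each group, and the mouse genome holds near-identical copies of it, so that its level is uncertain. It was chosen after its values were seen.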
